A study of Arabidopsis thaliana with 124 samples.

Results

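The 10 genes described here make, export or control the waxy cuticle of Arabidopsis thaliana, and they were taken by gene code from 27432 protein-coding genes. They are KCS1 (AT1G01120), CER6 (AT1G68530, also called KCS6), CER1 (AT1G02205), CER3 (AT5G57800), WSD1 (AT5G37300), MYB96 (AT5G62470), CYP86A2 (AT4G00360), CYP86A4 (AT1G01600), LTP3 (AT5G59320) and LTP4 (AT5G59310). A transcription factor was counted at a gene when the summit of one of its ChIP-seq peaks lay inside the gene or within 2000 bp of it. In all, 429 peaks met this rule, of which 267 were from ABA-treated and 162 from mock-treated seedlings.

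The cuticle is a layer of wax and cutin that the epidermis lays over the shoot to hold back water. Wax is made from very-long-chain fatty acids, which are lengthened in the endoplasmic reticulum and then turned into alkanes, alcohols or esters. Cutin is a polyester of hydroxylated fatty acids. Both are carried out through the cell wall, where small lipid transfer proteins are found, and wax deposition is known to increase under drought and abscisic acid (ABA), the hormone of water shortage. MYB96 is known as an activator of wax genes in that response.

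The series measured where 21 transcription factors bind by ChIP-seq (chromatin immunoprecipitation followed by sequencing). The ABA groups were Col-0 seedlings, 3 days old and kept in the dark, given 10 µM ABA for 4 h; the mock groups had the same age, light and duration with ethanol alone. Every line of both treatments carried 1 factor fused to the fluorescent protein YPet by recombineering, in which the tag is built into a large clone that holds the gene with its surroundings, and chromatin was pulled down with an antibody against GFP. There were 3 libraries per factor and treatment, 2 for ANAC102 and ZAT6, making 122 libraries of tagged lines, and 2 control libraries of untagged Col-0, both labelled as ABA-treated. The sources used here do not give which lists the controls served. Whole seedlings were used, so weak binding in all cells and strong binding in the epidermis alone cannot be told apart.

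The authors pooled the replicates into 1 peak list per factor and treatment, 42 lists in all, so no peak has a replicate error. The ABA lists held 194733 peaks and the mock lists 131965, and the ABA list was the longer for 19 of the 21 factors. Each peak carries the authors' fold enrichment and the authors' −log10 p, kept down to a −log10 p of about 16, and these are used here only to describe or rank peaks within their own list. Read depth is unknown. The lowest −log10 p in the lists of GBF3 and NFYB2 differed between ABA (17.98 and 19.25) and mock (16 and 17.58).

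All 10 genes had 10 or more factors under ABA, and 7 did so under mock. That number was reached by 48.1% of all genes under ABA and by 30.3% under mock. Of the 210 pairs of a gene and a factor, 159 (75.7%) had a peak under ABA and 106 (50.5%) under mock, against 43.1% and 30.1% over all genes. The median gene of the 10 had 16 factors under ABA and 12 under mock, and the median of all genes was 9 and 5. A peak was present in both treatments for 105 pairs, under ABA alone for 54 and under mock alone for 1, and 50 pairs had none. Over all genes, 91.0% of the pairs found in 1 treatment only were found under ABA.

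More ABA lists than mock lists reached each of the 10 genes, as they did 75.5% of all genes, while fewer did so at 3.67%. No gene passed the test. The test was a two-sided exact sign test per gene of the factors found under ABA alone against those found under mock alone, with Benjamini-Hochberg adjustment over the 24116 genes with any factor. It called 0.0% of those genes, and the lowest adjusted p was 0.149. At an unadjusted p below 0.05, 16.1% of the genes (3882) had more factors under ABA and 5 genes had fewer. In the same direction, 6 of the 10 did so: KCS1, CER1, CER3, CYP86A2, LTP3 and LTP4. The spread behind these p-values is that between factors, which are not independent within a family, and not that between libraries.

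The difference was smaller between lists of equal length. After the longer of a factor's lists was trimmed by −log10 p until it matched the other, 56.7% of the 210 pairs had a peak under ABA and 50% under mock, against 30.5% and 29.8% over all genes. The net number of factors, ABA minus mock, was then 4 at LTP4, 3 at CER1, 2 at CER3, WSD1, CYP86A2 and LTP3, 1 at KCS1, 0 at MYB96, and -1 at CER6 and CYP86A4. The part of sequencing depth in list length was not tested.

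**Figure D1:**
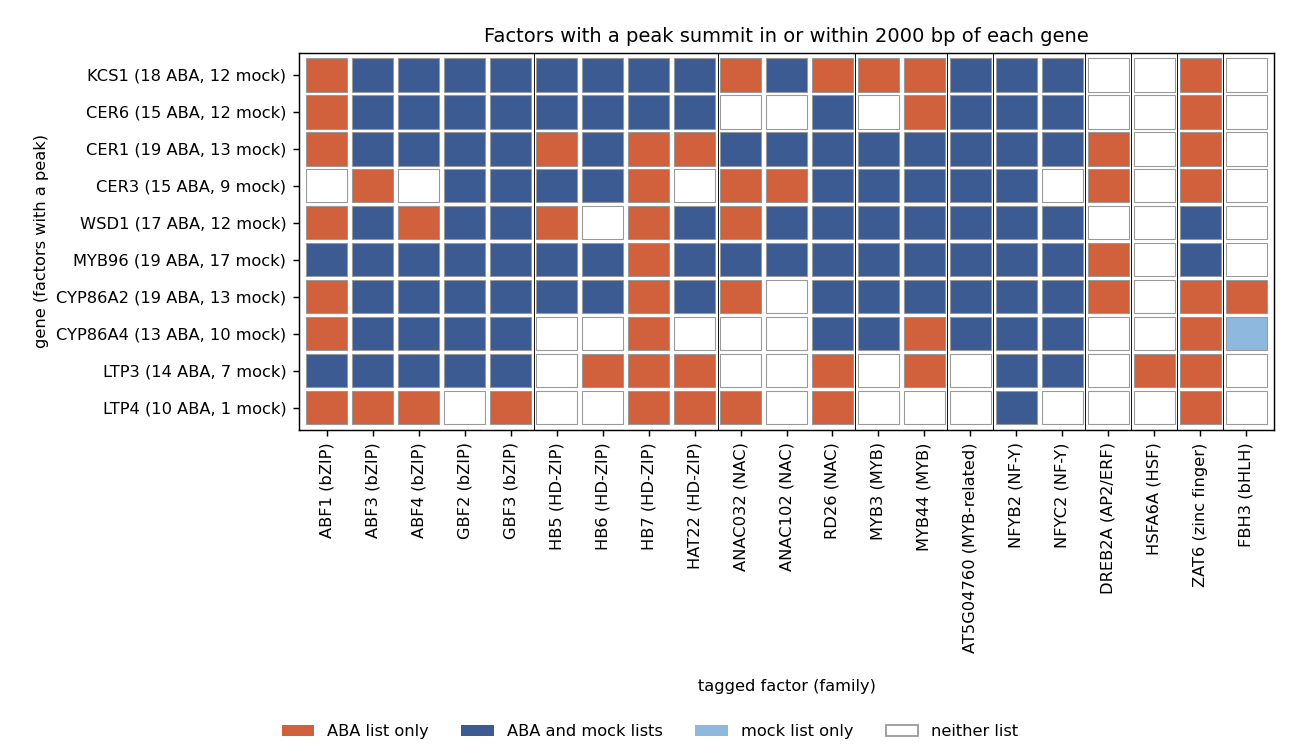
Factors (columns, grouped by family) with a peak summit in or within 2000 bp of each gene (rows), coloured by the treatment in whose list the peak was found. Pairs found under ABA alone (54) are spread over all 10 genes, and the single pair found under mock alone is FBH3 at CYP86A4.

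**Figure D2:**
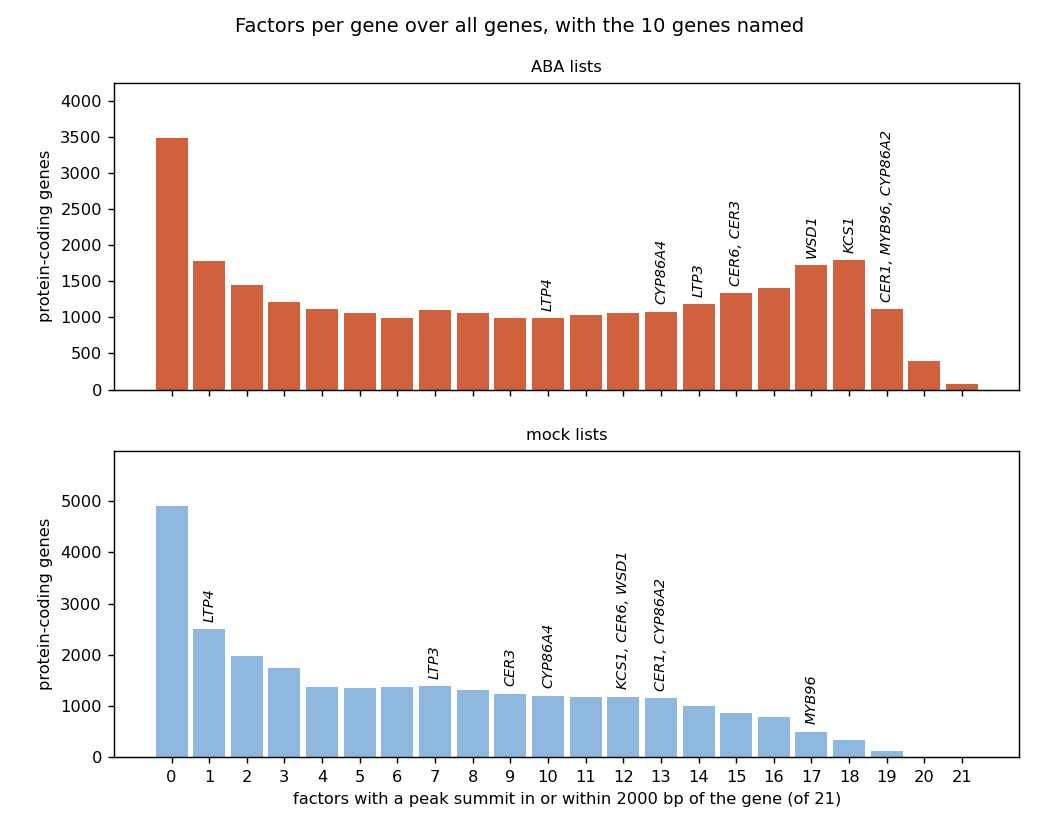
Number of protein-coding genes (bars) by the number of factors with a peak, in the ABA lists (top) and the mock lists (bottom), with the 10 genes named above their bars. All 10 stand at 10 or more factors under ABA, and MYB96 stands highest of them under mock with 17.

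KCS1 and CER6 are 3-ketoacyl-CoA synthases, the enzymes that add carbons to very-long-chain fatty acids. KCS1 had 18 factors under ABA and 12 under mock (adjusted p = 0.198, exact sign test). The 6 found under ABA alone were ABF1, ANAC032, RD26, MYB3, MYB44 and ZAT6. A count of at least 18 factors under ABA was reached by 12.3% of all genes.

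The 67 KCS1 peaks, 40 under ABA and 27 under mock, fell into 5 sites, a site being a chain of summits no more than 250 bp apart. A peak was counted only at the site of its summit, so a wide peak can cover a site without being counted there. The fullest site lay at the lower-coordinate end of the gene, between 146 bp before and 236 bp past it. It held the summits of 17 factors under ABA and 9 under mock. The mock peaks of GBF2 and GBF3 also covered that stretch, with summits 543 and 548 bp before the gene. Within this fullest site the families stood side by side, counted from the lower-coordinate end. The NF-Y summits lay at -119 to -62 bp, the bZIP summits at -25 to 49 bp and the HD-ZIP summits at 207 to 236 bp. HB7, an HD-ZIP protein induced by ABA and drought, had a fold enrichment of 2.65 and a −log10 p of 56.21 there under ABA, and 2.17 and 21.79 under mock. The NFYB2 peak under ABA, at chr1:56363-62619 on TAIR10, was the widest of the 429 at 6257 bp and ranked 1993 of 18096 in its list.

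A further site inside KCS1, with a median summit at 1286 bp, held almost only summits of bZIP proteins. They were those of ABF4, GBF2 and GBF3 under ABA, and of ABF3, ABF4, GBF2, GBF3 and NFYB2 under mock. Wide peaks with summits elsewhere also covered this site, the NFYB2 peak under ABA among them. Another, 1599 bp before the gene, had 13 factors under ABA and 9 under mock, but its summits lay nearer to IQD18. In all, 30 of the 67 summits were nearer to another gene than to KCS1. With each summit given to its nearest gene only, KCS1 still had 18 factors under ABA and 12 under mock.

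CER6 is the elongase known as the main one for stem wax. It had 15 factors under ABA and 12 under mock (adjusted p = 0.484, exact sign test), and ABF1, MYB44 and ZAT6 were the 3 found under ABA alone. The 43 peaks formed 7 sites. Beside the higher-coordinate end, at 2544 to 2699 bp, were 11 factors under ABA and 8 under mock, with the 5 bZIP proteins at a median of 2652 bp and the HD-ZIP proteins HB5 and HAT22 at 2594 bp.

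The other full site of CER6, with summits 1312 to 1229 bp before its lower end, held 7 factors under ABA and 8 under mock and lay nearer to the gene BBX14. NFYC2, a subunit of the CCAAT-binding NF-Y complex, gave it a fold enrichment of 5.21 and a −log10 p of 125.37 under ABA (rank 357 of 8390) and 5.21 and 118.31 under mock (rank 197 of 5781). The NFYC2 and NFYB2 summits of both treatments lay together at -1312 to -1308 bp. All 4 HD-ZIP proteins had summits there too, at -1265 to -1229 bp, HAT22 under mock alone. Of all CER6 summits 18 were nearer to a neighbouring gene, and with nearest genes only CER6 had 13 factors under ABA and 8 under mock.

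CER1 and CER3 work together to make alkanes, the main wax of Arabidopsis stems. CER1 had 19 factors under ABA, as had MYB96 and CYP86A2, and 13 under mock (adjusted p = 0.198, exact sign test). ABF1, HB5, HB7, HAT22, DREB2A and ZAT6 were found under ABA alone. At least 19 factors under ABA were found at 5.74% of all genes.

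The CER1 site with the highest ranks lay inside the gene, at 1708 to 1819 bp, and held 17 factors under ABA and 12 under mock. There the NAC proteins ANAC032 and ANAC102 had peaks near the top of their lists. ANAC032, at chr1:419667-420628 under ABA, had a fold enrichment of 3.92 and a −log10 p of 98.45 (rank 47 of 7977), and under mock 4.01 and 77.71 (rank 11 of 801). ANAC102 had 4.16 and 89.69 under ABA (rank 81 of 4793), and 4.44 and 93.1 under mock (rank 14 of 2832). Both NAC peaks were thus present in either treatment, in lists of very unlike length. RD26, a NAC protein of drought and senescence, had 2.34 and 45.4 under ABA and 2.8 and 57.5 under mock (rank 700 of 7651).

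The second full site of CER1, around its lower end at -307 to 216 bp, had 17 factors under ABA and 7 under mock. The families were split within it: the MYB, NAC, DREB2A and ZAT6 summits, with HB7 and HAT22, lay at -307 to -199 bp, and the bZIP and NF-Y summits at 3 to 216 bp. MYB3 stood high there, with a −log10 p of 57.02 under ABA (rank 257 of 6213) and 44.1 under mock (rank 272 of 3405). DREB2A, a dehydration-response factor, had a −log10 p of 31.17 under ABA and no peak under mock, where its whole list has 15 peaks. Of the 57 CER1 summits 24 also fell within 2000 bp of CER1-L1 (AT1G02190), a close relative on the same side, and 9 were nearer to that gene.

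CER3 had 15 factors under ABA and 9 under mock (adjusted p = 0.198, exact sign test), with ABF3, HB7, ANAC032, ANAC102, DREB2A and ZAT6 under ABA alone. Its median −log10 p, taken over lists of unlike scale, was 26.97 under ABA and 24.49 under mock. The median CER3 peak ranked 70.9% from the top of its list under ABA and 64.0% under mock. At -1272 to -861 bp lay the summits of 11 factors under ABA and 4 under mock. The 3 NAC proteins were among those under ABA, with ANAC032 at a −log10 p of 51.18 (rank 1583 of 7977). The mock peaks of GBF2 and GBF3 also covered this stretch and overlapped their ABA peaks. Their summits lay at -98 and -42 bp, so they were not counted here. At the higher end of the gene, 3880 to 3936 bp, lay 7 factors under ABA and 2 under mock, DREB2A and MYB3 among them. HB5 and HB6 had their only CER3 summits at the lower end, at 14 to 123 bp, in both treatments. Their peaks in both treatments also covered most or all of the stretch at -1272 to -861 bp. Counting only peaks with a −log10 p of at least 32, CER3 had 6 factors under ABA and 2 under mock.

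WSD1 joins fatty acids to alcohols as wax esters. It had 17 factors under ABA and 12 under mock (adjusted p = 0.248, exact sign test), and ABF1, ABF4, HB5, HB7 and ANAC032 were found under ABA alone. The WSD1 peaks formed 5 sites. GBF2 and GBF3 had summits at 4169 to 4181 bp in both treatments, nearer to AT5G37310. GBF3 had a −log10 p of 79.17 there under ABA and 72.15 under mock. At -1993 to -1918 bp, nearer to AT5G37290, lay 4 factors under ABA and NFYB2 alone under mock. MYB3 and ZAT6 at -23 to 14 bp and NFYB2 at 3253 bp had summits under ABA alone. The site at -1256 to -851 bp held all 17 factors under ABA and all 12 under mock. From its far side towards the gene came the NAC summits at -1256 to -1108 bp, ZAT6 and MYB44 at -1099 to -1067 bp, the bZIP summits at -1043 to -948 bp and the NF-Y summits at -864 to -851 bp.

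At that WSD1 site ZAT6, a zinc finger protein of stress responses, had a fold enrichment of 3.08 and a −log10 p of 74.15 under ABA (rank 1258 of 11512), and 2.69 and 35.3 under mock (rank 1689 of 5146). MYB44, a MYB protein of ABA signalling in guard cells, had 2.94 and 68.35 under ABA (rank 1443 of 11479), and 2.62 and 45.75 under mock (rank 1532 of 7154). The median summit of the site was 1043 bp from the gene, and a window of 1000 bp left WSD1 with 8 factors under ABA and 4 under mock.

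MYB96, the wax activator, was the gene of the 10 with the most factors under mock, 17, and had 19 under ABA (adjusted p = 0.748, exact sign test). Only HB7 and DREB2A were found under ABA alone, and HSFA6A and FBH3 in neither treatment. All 19 factors under ABA and all 17 under mock met in 1 site 934 to 596 bp before its lower end. Summits of 8 families crowded there around -647 bp: the bZIP median was -643 bp, the HD-ZIP median -641 bp and the NAC median -647 bp. MYB44, and under mock ZAT6, peaked apart from the others at -934 to -919 bp.

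Of the factors at that MYB96 site, ANAC032 ranked 622 of 7977 under ABA with a −log10 p of 69.41, and 552 of 801 under mock with 19.77. RD26 had a −log10 p of 49.67 under ABA (rank 2114 of 11825) and 56.77 under mock (rank 737 of 7651). ABF1 had 42.26 under ABA and 20.41 under mock. All 17 factors found under mock at MYB96 were also found under ABA. With peaks of a −log10 p of at least 32 only, MYB96 had 19 factors under ABA and 10 under mock (adjusted p = 0.199, exact sign test).

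Other summits of MYB96 lay at its higher end, 2116 to 2178 bp, with 12 factors under ABA and 5 under mock. Summits also lay at 2762 to 2836 bp, where only those of ABF4, GBF2, GBF3 and NFYB2 fell. At the higher end ZAT6 had a −log10 p of 72.31 under ABA and 27.25 under mock. ANAC032 had a peak there under ABA alone, with a −log10 p of 57.36.

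**Figure D3:**
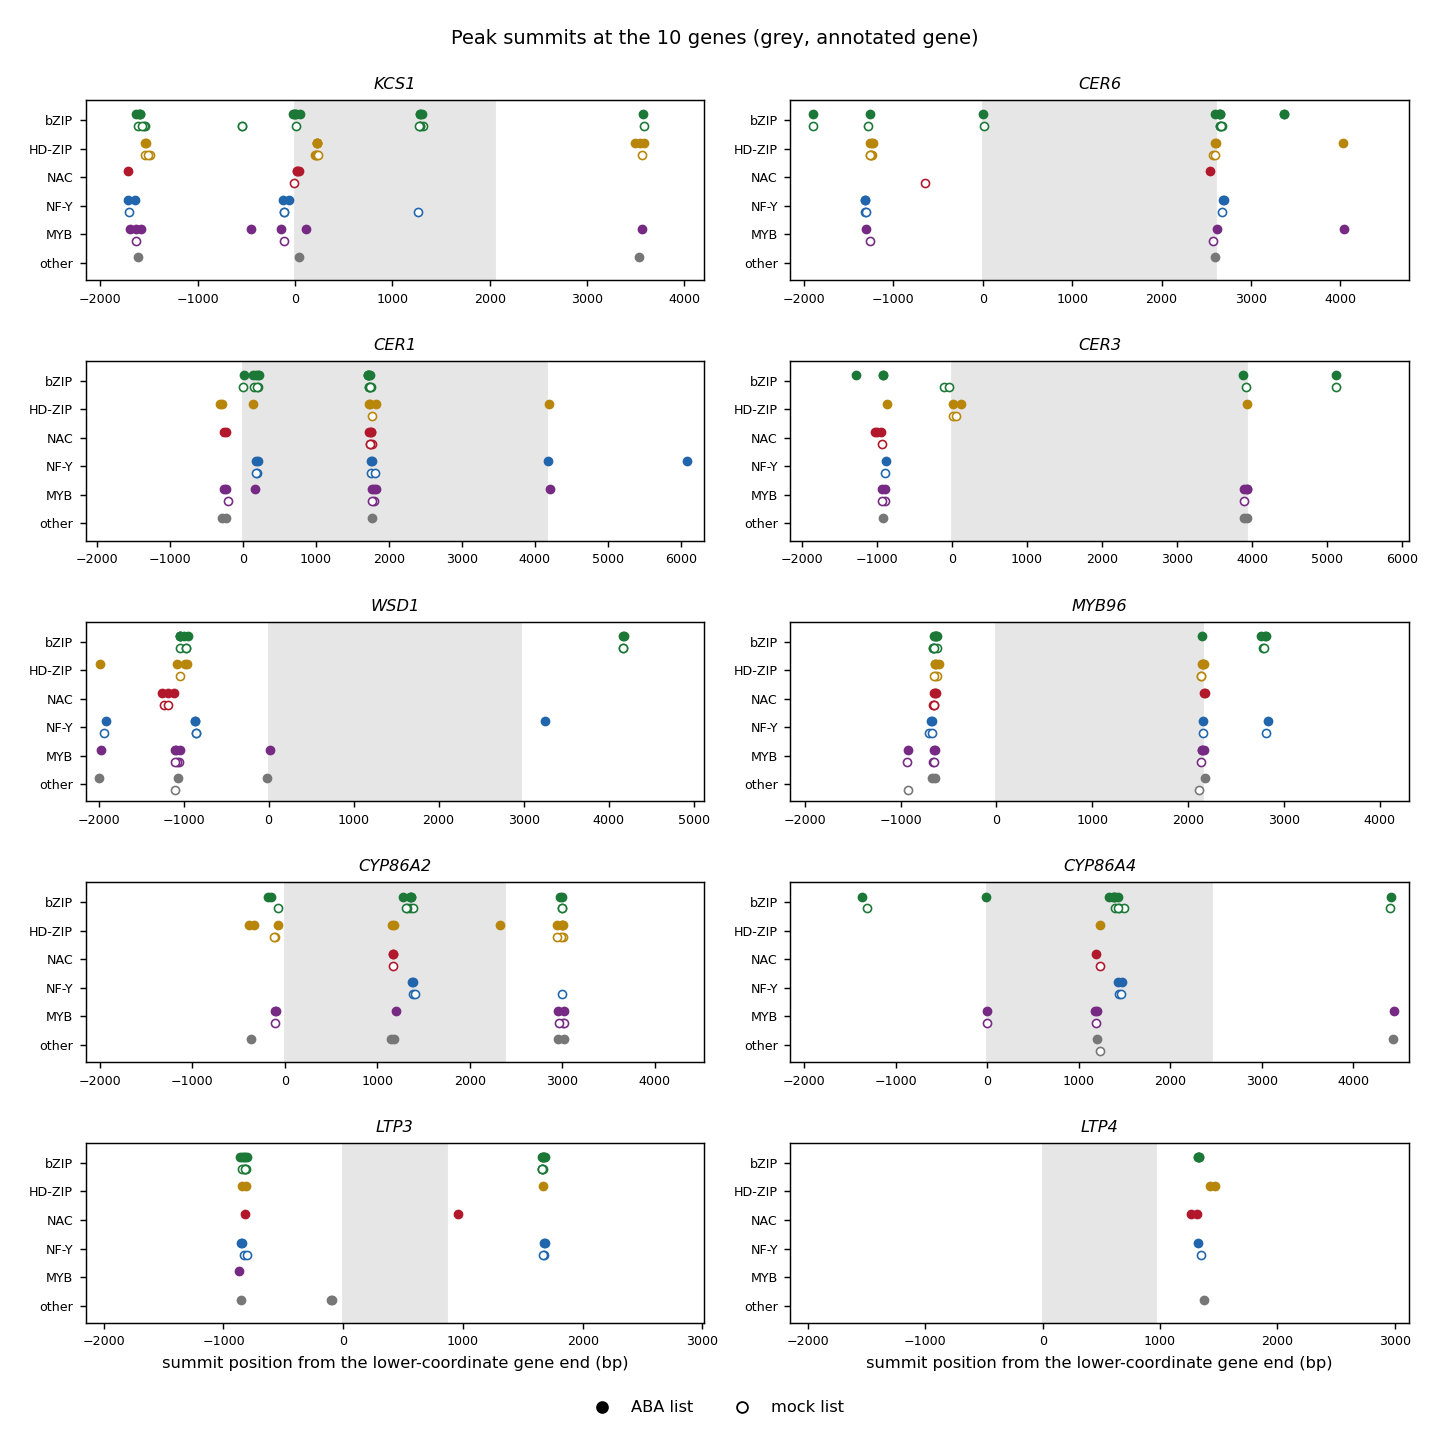
Peak summits at each gene, by family (rows within a panel; MYB includes the MYB-related AT5G04760), in bp from the lower-coordinate end of the gene, with the annotated gene in grey, ABA lists as filled and mock lists as open circles. Summits of many factors fall at the same few sites, such as 934 to 596 bp before MYB96 and 1179 to 1493 bp into CYP86A4, and the LTP4 summits form 1 site beyond its higher end.

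CYP86A2 and CYP86A4 are cytochrome P450 enzymes that hydroxylate the ends of fatty acids for cutin. CYP86A2 had 19 factors under ABA and 13 under mock (adjusted p = 0.198, exact sign test), and CYP86A4 had 13 and 10 (adjusted p = 0.681, exact sign test). At both, the highest-ranked peaks lay in the middle of the gene and belonged to bZIP and NF-Y proteins. CYP86A2 had ABF1, HB7, ANAC032, DREB2A, ZAT6 and FBH3 under ABA alone. CYP86A4 had ABF1, HB7, MYB44 and ZAT6 under ABA alone and FBH3 under mock alone.

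The site inside CYP86A4, at 1179 to 1493 bp, held 12 factors under ABA and 9 under mock. GBF3, a G-box binding bZIP protein, had a −log10 p of 141.89 under ABA at chr1:218580-221221, the highest value of its list, which 40 of its 16320 peaks share. Under mock it had 147.64 at chr1:218580-221688, again the highest value, shared by 20 of 14247 peaks. GBF2 had a fold enrichment of 3.84 and a −log10 p of 103.03 under ABA (rank 132 of 10724), and 3.69 and 98.25 under mock (rank 155 of 10329). The ABF3 peaks ranked 1077 of 11273 under ABA and 791 of 9243 under mock, and the ABF4 peaks 774 of 8774 under ABA and 404 of 6267 under mock. ABF1 stood lower, at rank 3967 of 8512 under ABA, and had no peak under mock.

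NFYB2 had a fold enrichment of 11.35 and a −log10 p of 239.5 at the CYP86A4 site under ABA, at chr1:218547-221381, rank 196 of 18096. Its whole ABA list reached 11.96 and 260.04. Under mock the NFYB2 values there were 7.73 and 173.44, rank 799 of 14814. The summits of RD26, MYB44, AT5G04760, HB7, ZAT6 and FBH3 stood apart from these at 1179 to 1236 bp, against 1325 to 1493 bp for bZIP and NF-Y. Of the 30 CYP86A4 summits 25 also fell within 2000 bp of GPAT4 (AT1G01610), the neighbouring acyltransferase gene of cutin synthesis.

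CYP86A2 had the same arrangement in its own middle site, at 1151 to 1406 bp, with 13 factors under ABA and 7 under mock. FBH3, HB7, RD26, ANAC032, ZAT6, HAT22 and MYB44 lay at 1151 to 1208 bp, and the bZIP and NF-Y proteins at 1283 to 1406 bp. GBF3 had a −log10 p of 133.22 under ABA (rank 750 of 16320) and 138.54 under mock (rank 569 of 14247). NFYB2 had a fold enrichment of 9.48 under ABA (rank 1321 of 18096) and 7.44 under mock (rank 827 of 14814). The 2 enzymes are close relatives, and the sources used here do not give how reads that match both genes were treated.

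Another full site of CYP86A2, at 2939 to 3023 bp, held 10 factors under ABA and 9 under mock, and its summits lay inside the neighbouring gene ANTR2, 614 bp past CYP86A2 at the median. HB5 ranked high there, with a −log10 p of 66.31 under ABA (rank 967 of 9558) and 71.38 under mock (rank 848 of 10026). All 4 HD-ZIP proteins had summits there, HB7 under ABA alone. With nearest genes only, CYP86A2 had 16 factors under ABA and 10 under mock. FBH3, a bHLH protein known as an activator of CONSTANS, was at CYP86A2 under ABA alone with a −log10 p of 17.2 and at CYP86A4 under mock alone with 16.67, both near the authors' threshold.

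LTP3 and LTP4 are small secreted lipid transfer proteins whose genes are closely related neighbours. LTP3 had 14 factors under ABA and 7 under mock (adjusted p = 0.169, exact sign test). The 7 of both treatments were all 5 bZIP proteins and the 2 NF-Y proteins. Under ABA alone stood HB6, HB7, HAT22, RD26, MYB44, HSFA6A and ZAT6.

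The bZIP and NF-Y summits of LTP3 fell at 2 sites, one on each side of the gene and none inside it. The one at -874 to -804 bp held 12 factors under ABA and 7 under mock, and the one at 1660 to 1688 bp held 8 and 6 and lay nearer to AT5G59330. At the lower-side site ABF1 had a −log10 p of 75.7 under ABA (rank 1034 of 8512) and 22.29 under mock (rank 1513 of 2494). NFYB2 had a fold enrichment of 8.81 there under ABA and 5.88 under mock, and at the higher-side site 9.72 and 5.72. HSFA6A, a heat shock factor, had its only peak at the 10 genes here, 99 bp before LTP3 under ABA, with a −log10 p of 18.41.

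LTP4 had the fewest factors of the 10 in either treatment, 10 under ABA and 1 under mock (adjusted p = 0.149, exact sign test). A net difference of at least 9 factors was found at 2.41% of all genes. All 11 peaks lay at 1 site, 1264 to 1468 bp from its lower end and 365 bp past its higher end at the median. Under ABA the −log10 p there was 92.4 for NFYB2, 46.21 for GBF3, 45.64 for ABF3, 45.55 for HAT22 and 36.79 for HB7. It was 36.78 for ABF4, 33.43 for ABF1, 31.99 for ANAC032, 23.63 for ZAT6 and 21.02 for RD26. Under mock NFYB2 alone had a peak, at 18.29, rank 14406 of 14814. The ABA peaks ranked between 26.1% (NFYB2) and 79.7% (RD26) from the top of their lists.

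The LTP4 count under mock depended on how a peak was given to a gene. Counting any peak that overlapped the gene or its flanks gave 13 factors under ABA and 7 under mock. The peaks this added were GBF2, NFYC2 and MYB44 under ABA and ABF1, ABF3, ABF4, GBF2, GBF3 and NFYC2 under mock, all of which also count for LTP3 by their summits. The ABF1 peak under mock, at chr5:23927445-23928501, is one of them. In lists cut to equal length LTP4 had 5 factors under ABA and 1 under mock (adjusted p = 1.0, exact sign test). How the authors treated reads matching both LTP3 and LTP4 was not examined here, and the part of such reads in these values was not tested. All 47 LTP3 and LTP4 summits lay outside the genes.

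Of the 267 ABA peaks 151 (56.6%) overlapped a mock peak of the same factor, and 157 of the 162 mock peaks overlapped an ABA peak. Over all peaks of the 42 lists, 63.3% of the ABA peaks overlapped a mock peak of the same factor and 94.4% of the mock peaks an ABA peak. The nearest overlapping mock summit lay within 50 bp of the ABA summit for 127 of the 151 (84.1%), against 83.3% over all overlapping ABA peaks, with a median distance of 16 bp and 17 bp over all. These distances leave out the 116 ABA peaks with no overlapping mock peak, and overlap itself keeps summits near each other. The 5 mock peaks with no ABA partner were those of HAT22 and ABF3 at KCS1, HAT22 and RD26 at CER6 and FBH3 at CYP86A4, with −log10 p values of 16.67 to 26.68. Of all 429 summits 141 lay inside the genes, 85 under ABA and 56 under mock, and 110 lay nearer to another gene than to the one of the 10.

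Most peaks of the 10 genes were ordinary members of their lists. The median rank was 46.9% from the top under ABA and 49.0% under mock, and 232 of 429 peaks were in the upper part of their list, above 50%. In the top 10% were 30 peaks, and in the top 5% 15 peaks, which belonged to CYP86A4 (GBF2, GBF3, NFYB2), CER1 (ANAC032, ANAC102, MYB3), CYP86A2 (GBF2, GBF3) and CER6 (NFYC2). No KCS1, CER3, WSD1 or LTP4 peak was in the top 10%.

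**Figure D4:**
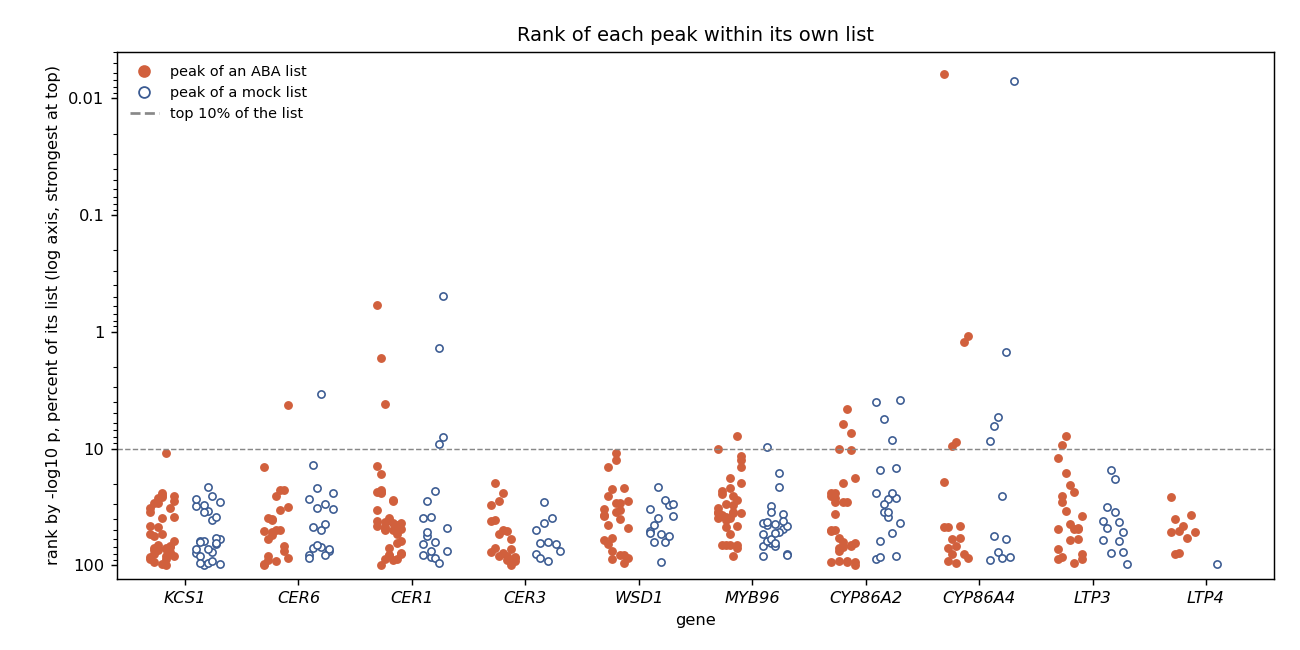
Rank of each peak by −log10 p as a percentage of its own list (log axis, strongest at the top) for the ABA lists (left of each gene, filled) and the mock lists (right, open), with the top 10% marked by a dashed line. Above the line stand 30 of the 429 peaks, among them GBF3 at CYP86A4 at 0.00613% under ABA and 0.00702% under mock. Tied peaks take the first rank of their tie, and these GBF3 values are shared by 40 peaks under ABA and 20 under mock.

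The bZIP proteins had 47 of 50 possible gene and factor pairs under ABA and 35 under mock. ABF3 and GBF3 were at all 10 genes under ABA and at 8 and 9 under mock, against 54.0% and 65.8% of all genes under ABA and 45.1% and 61.8% under mock. ABF1 was at 9 genes under ABA and 2 under mock (41.9% and 14.6% of all genes), and MYB96 and LTP3 were the 2 under mock. ABF4 was at 9 and 7 (43.4% and 33.4%). GBF2 was at the same 9 genes in both treatments, all but LTP4 (50.1% and 48.7%). ABF proteins bind ABA-responsive elements and are the best known factors of the ABA response, while GBF proteins bind G-boxes.

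The NF-Y proteins were at the same genes in both treatments. NFYB2 was at all 10 in either, against 74.0% of all genes under ABA and 65.7% under mock. NFYC2 was at 8 in either, missing at CER3 and LTP4, against 43.4% and 32.4%. The MYB-related protein AT5G04760 was at 8 in either, missing at LTP3 and LTP4, against 53.6% and 45.4%.

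HD-ZIP proteins are homeodomain-leucine zipper factors. HB7 was at all 10 genes under ABA and under mock at KCS1 and CER6 alone, against 61.1% and 19.1% of all genes. HAT22 was at 8 genes under ABA and 5 under mock (42.9% and 34.9%). HB6 was at 7 and 6 (53.0% and 46.0%), and HB5 at 7 and 5 (44.5% and 46.0%). The HB5 list was the longer under mock. CER1 and WSD1 had HB5 under ABA alone, with −log10 p values of 18.45 at CER1 and of 20.37 and 19.15 at WSD1, ranked 82.2% to 89.8% from the top.

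Among the NAC proteins RD26 was at 10 genes under ABA and 7 under mock, against 55.9% and 37.5% of all genes. ANAC032 was at 7 and 2 (39.3% and 4.58%), with CER1 and MYB96 the 2 under mock, and ANAC102 at 5 and 4 (25.3% and 15.5%). For the MYB proteins, MYB3, a repressor of phenylpropanoid genes, was at 7 and 6 (30.8% and 17.5%) and MYB44 at 9 and 5 (52.0% and 34.0%). ZAT6 was at all 10 under ABA and at WSD1 and MYB96 alone under mock (52.6% and 24.0%).

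The 3 factors with short lists had few peaks here. DREB2A was at CER1, CER3, MYB96 and CYP86A2 under ABA and at none under mock, against 9.14% and 0.0875% of all genes. HSFA6A was at LTP3 under ABA and at none under mock (11.1% and 0.27%). FBH3 was at 1 gene in each treatment (1.24% under ABA and 6.5% under mock).

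Genes with the factor pattern most like each of the 10 were found by the share of lists in common among the 42, leaving out genes within 10000 bp. CER6 had its 27 lists in common with the neighbouring genes AT5G52980 and AT5G52990. MYB96 shared all 36 of its lists with XYL1 and 36 of 37 with G18E, and 14 genes were at least as alike as G18E. KCS1 shared 30 of 31 with OCT4 and with XRN4, and CYP86A2 31 of 32 with PYM and with AtIPCS1. CER1 shared 32 of 35 with WRKY15 and with LCR32. CYP86A4 shared 22 of 24 with AT1G78995 and its neighbour HAC1. WSD1 shared 29 of 32 with CXE13 and with GAMMA CAL2, and LTP3 20 of 22 with AT1G09190 and with GFAT. CER3 had 22 of 25 in common with AT1G04200 and 24 of 28 with AT4G03340. The pattern of LTP4 had the least close match, 9 of 11 with MYB42, then 10 of 13 with MRN1. Lists of great length put many genes in common, and none of the genes nearest in pattern is itself one of the 10.

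In a list of 48 other cuticle genes, 38 had more factors under ABA, 4 fewer and 6 the same number, beside 75.5% of all genes with more and 3.67% with fewer. No gene passed the exact sign test after adjustment, and 16 had an unadjusted p below 0.05, all with more factors under ABA, against 16.1% of all genes with any factor. The median gene had 13 factors under ABA and 9 under mock, against 9 and 5 over all genes. In lists of equal length 21 of the 48 had more factors under ABA, 14 fewer and 13 the same number, against 32.4% of all genes with more and 27.1% with fewer. There 1 of the 48 had more factors under ABA at an unadjusted p below 0.05, against 0.941% of all genes with any factor in these lists.

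In lists of equal length 8 of the 15 other wax synthesis genes had more factors under ABA and 1 fewer. Over all genes these shares were 32.4% and 27.1%. In the full lists 14 of the 15 had more, against 75.5% of all genes. There 6 had an unadjusted p below 0.05 in the exact sign test (16.1% of all genes with any factor). CER9, a ubiquitin ligase that limits wax and cutin, had 19 factors under ABA and 12 under mock (adjusted p = 0.242, exact sign test). CER1-L1, the relative of CER1, had 19 and 11 (adjusted p = 0.157, exact sign test), but 24 of the 57 CER1 summits count for it too. Likewise 25 of the 30 CYP86A4 summits count for GPAT4, a gene of the cutin group. In lists of equal length 5 of the 11 cutin synthesis genes had more factors under ABA and 4 fewer. In the full lists 8 had more and 1 fewer, against 75.5% and 3.67% of all genes. DCR, an acyltransferase, had 19 factors under ABA and 12 under mock, CYP86A7 17 and 14, and LACS2, an acyl-CoA synthetase, 16 and 7 (adjusted p = 0.149, exact sign test).

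In lists of equal length 4 of the 6 genes of export and transport had more factors under ABA and 1 fewer. Over all genes these shares were 32.4% and 27.1%. In the full lists 5 had more, against 75.5% of all genes. ABCG11 and ABCG32, transporters of wax and cutin precursors, had 16 factors each under ABA, and 8 and 9 under mock. All 6 other lipid transfer protein genes had more factors under ABA, at a median of 4.5 under ABA and 1 under mock, LTP5 and LTP6 by a single factor each. In lists of equal length 2 of these 6 had more and 1 fewer, again beside 32.4% and 27.1% of all genes. LTP2 had 17 factors under ABA and 12 under mock, and LTP1 11 and 2 (adjusted p = 0.149, exact sign test).

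The 10 regulators were mixed, with 5 higher under ABA, 3 lower and 2 equal, beside 75.5% of all genes higher and 3.67% lower. In lists of equal length 2 were higher, 7 lower and 1 equal, beside 32.4% higher and 27.1% lower over all genes. HDG1, a homeodomain protein of the epidermis, had 19 factors under ABA and 17 under mock, and MYB30, a wax activator of the pathogen response, 18 in both. MYB41, a regulator of cuticle and suberin genes induced by ABA, had 16 factors under ABA and 5 under mock (adjusted p = 0.149, exact sign test).

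**Figure D5:**
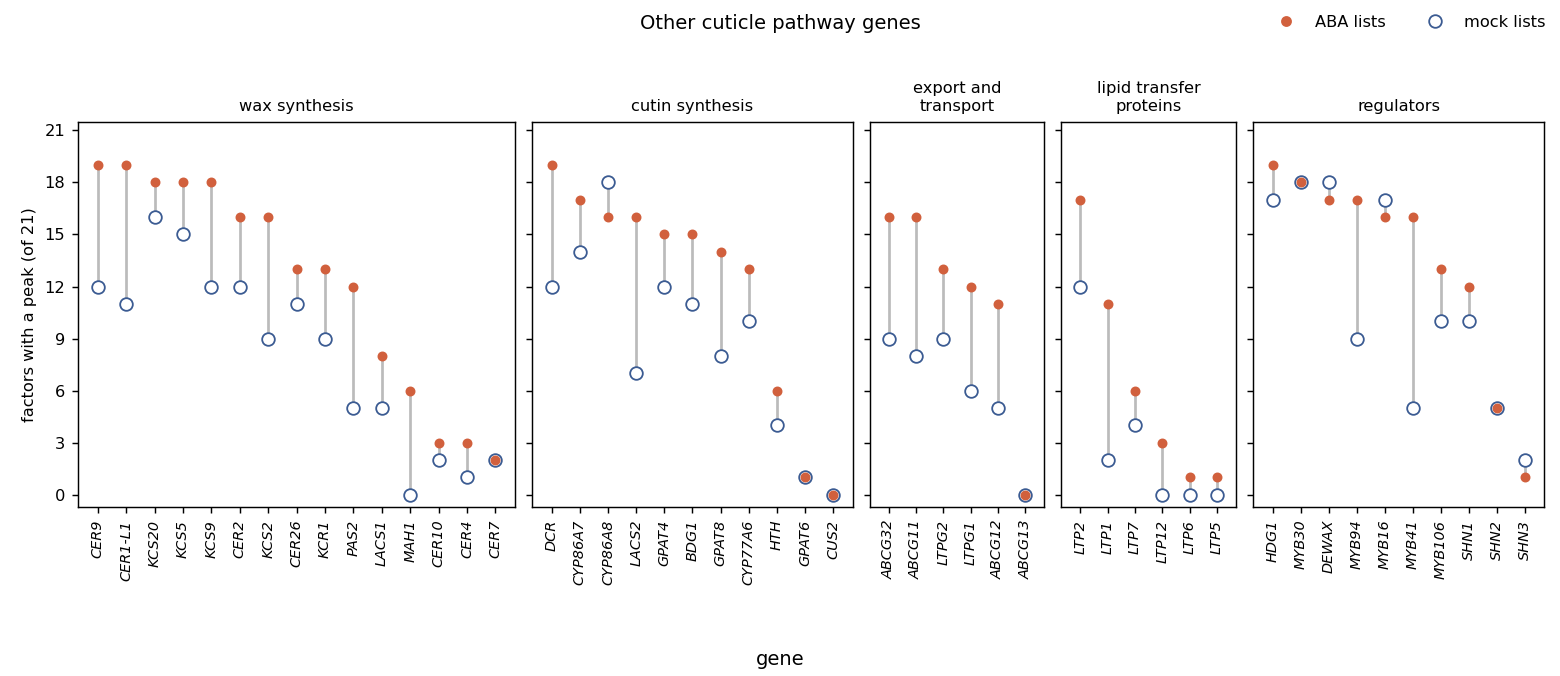
Number of factors with a peak at each of 48 other cuticle genes in 5 groups, under ABA (filled) and mock (open), joined by a line. The filled circle is the higher for 38 genes, among them MYB41 with 16 factors under ABA and 5 under mock, and the lower for CYP86A8 (16 under ABA and 18 under mock), DEWAX (17 and 18), MYB16 (16 and 17) and SHN3 (1 and 2).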

How the data were processed

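Binding of 21 YPet-tagged factors was measured by ChIP-seq in ABA- and mock-treated Arabidopsis seedlings. Per the submitters' processing notes, the tools were Bowtie 0.12.7 and MACS2 2.0.10 and the genome was TAIR10, with no role given. Per the file names and peak names, the authors deposited 1 narrowPeak list per factor and treatment, made from pooled replicates. The deposited fold enrichment of a peak is a ratio by the authors over a control, the deposited −log10 p is the authors' too, and the summit is a deposited offset in bp. The q-value column holds -1 throughout and was not used. No read counts come with the lists, so depth is unknown and no interval that needs it is given. Titles gave the factor and treatment of each library. Whether replicates are separate cultures is not stated in the labels.

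A summit was given to every protein-coding gene of the NCBI table of assembly TAIR10.1 that it lay in or within 2000 bp of. All 10 genes and all 48 other cuticle genes matched that table. The table holds no strand, so sides are named by lower and higher coordinate, and its gene coordinates are not printed. Peak coordinates are 1-based on TAIR10. Factors under ABA alone and under mock alone were compared per gene with a two-sided exact sign test (SciPy 1.17.1, pandas 2.3.3, NumPy 2.4.6, Python 3.11.15) with Benjamini-Hochberg adjustment over 24116 genes and a threshold of 0.05. The step was tested on simulated data, with treatments swapped at random and gains planted that were larger than those at the 10 genes. The simulation does not show how the test fares with gains of the size seen here. Summits up to 250 bp apart formed a site, and peaks overlapping by at least 1 bp were called shared. Planned motif searches were not run, since no genome sequence was used here.

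The genes named were the 10 members, the 2 with most factors under ABA and the 1 with the largest net difference in each of 5 pathway groups, and the 2 genes most alike to each member by the Jaccard index over the 42 lists. Genes named beyond the rule were chosen after their values were seen. The 10 genes, the pathway list and the tests were chosen with earlier results of these data known. Alternatives tried were a window of 1000 bp, any overlap, the nearest gene only, a −log10 p of at least 32, lists of equal length, lists without 3 factors with few peaks or without GBF3 and NFYB2, the family as the unit, a reciprocal overlap of 50%, and, added after the data were seen, a site gap of 100 bp and lists of equal length for the 48 other cuticle genes.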

Additional observations from a re-analysis of the deposited data

How the results depend on the processing

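Of 70 values of the net number of factors at the 10 genes, from 7 alternatives, 67 stayed above 0, 1 was 0 (MYB96 in lists of equal length) and 2 turned round: CER6 and CYP86A4 were each at -1 in lists of equal length. No alternative called a member (lowest adjusted p 0.148) or any other gene with the exact sign test. The share of gene and factor pairs with a peak under ABA moved from 75.7% to 58.1% at a −log10 p of at least 32 (mock 32.9%), to 56.7% in lists of equal length (mock 50%), and to 85% without DREB2A, HSFA6A and FBH3 (mock 58.3%). The share of ABA peaks meeting a mock peak was 49.4% at a reciprocal overlap of 50%. Genes with an unadjusted p below 0.05 and more factors under ABA numbered 3882 as reported, 2217 with nearest genes only, 218 in lists of equal length and 1404 with the family as the unit. Those with fewer numbered 5 as reported, 8 at 1000 bp, 3 by any overlap, 2 at a −log10 p of at least 32, 101 in lists of equal length and 1 with the family as the unit. In lists of equal length and at a −log10 p of at least 32 fewer peaks enter by construction. The nearest-gene setting gives each summit to 1 gene only. Leaving out factors changes which pairs are counted, and the family as the unit leaves fewer units to the test. The size of the change due to each of these was not tested. Of the 48 other cuticle genes, those with more factors under ABA numbered 38 as reported and 21 in lists of equal length, and those with fewer 4 and 14. A site gap of 100 bp gave 46 sites in place of 41.

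No paired analysis was possible because the lists pool the replicates and their columns carry no replicate numbers; for the same reason leaving out a replicate was not possible. With 1 list per factor and treatment no count has an error between libraries, and depth is unknown.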

Other observations

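The mid-gene peaks of GBF2 and GBF3 at CYP86A2 and CYP86A4 had counterparts in CYP86A7 and CYP86A8 of the same enzyme family. The genes of this family were looked at after those values were seen. GBF3 summits lay at 57.4% of the gene's length from its lower end under ABA and 55.1% under mock in CYP86A2, at 56.3% and 58.4% in CYP86A4, at 47.9% and 46.8% in CYP86A7, and at 42.5% and 46.6% in CYP86A8. By rank, the GBF3 peak was at 4.6% of its list under ABA and 3.99% under mock in CYP86A2, at 0.46% and 0.519% in CYP86A7, and at 2.56% and 2.06% in CYP86A8. CYP86A1, a suberin gene of the root, had GBF2 and GBF3 inside it in both treatments. There the GBF2 summit lay at 81.2% of the length under ABA and 79.9% under mock, and the stronger GBF3 summit at 81.6% and 78.6%, ranked 15.8% from the top of its list under ABA and 33.3% under mock. A weaker GBF3 summit of CYP86A1 lay at 50.9% under ABA and 51.4% under mock, ranked 33.4% under ABA and 47.2% under mock. NFYB2 summits lay beside those of the bZIP proteins in CYP86A2 and CYP86A4, but apart from them in CYP86A7 and CYP86A8. In CYP86A7 NFYB2 lay at 87.7% of the length under ABA and 87.8% under mock. In CYP86A8 it lay at 11.9% under both, with a further mock summit at 97.5%. Lengths run from the lower-coordinate end and the strand is unknown, so these percentages give no position relative to gene direction. These genes are related in sequence, and the part of reads that match more than 1 of them was not tested.

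Some other cuticle genes held peaks in the top 2% of their lists. Every list has 2% of its peaks there by definition, and the share among all peaks of these genes is not given here. The peaks below were picked by rank after the values were seen, so they set these genes apart from no others. MYB44 at CER9 had a −log10 p of 103.61 under ABA, rank 22 of 11479, and 92.59 under mock, rank 6 of 7154. At KCS20, an elongase gene, MYB44 ranked 110 of 11479 under ABA and 64 of 7154 under mock. At DEWAX, a repressor of wax genes in the dark, ZAT6 ranked 52 of 11512 under ABA and 66 of 5146 under mock, and AT5G04760 ranked 134 of 11172 under ABA and 93 of 9393 under mock. HDG1 held top peaks of HD-ZIP proteins, with HB6 at rank 34 of 11513 under ABA and 90 of 9856 under mock, and HB5 at rank 153 of 9558 under ABA and 46 of 10026 under mock. MYB16, a regulator of cuticle formation in reproductive organs and trichomes, had HB5 at rank 138 of 9558 under ABA and 198 of 10026 under mock.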
